A study of Homo sapiens with 16 samples.

Results

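The question addressed here is what silencing iASPP changed in the transcriptome of HCT116 cells that were also treated with nutlin. HCT116 is an established colon cancer line, and the labels give its p53 as wild type. The comparison sets the 2 libraries labelled iASPP siRNA+nutlin against the 2 labelled CTR siRNA+nutlin, which makes 4 of the 16 RNA-seq libraries of the series. Cells received siRNA for 3 days, and Nutlin-3 was then present for a further 0.5 days. The control arm thus carries a control siRNA and the same nutlin treatment. The other groups, used only to set these results beside, are CTR siRNA, iASPP siRNA, p53 siRNA and p53+iASPP siRNA without nutlin, and p53 siRNA and p53+iASPP siRNA with it, at 2 libraries each. All are 1 cell line, and the labels state neither the siRNA sequences nor whether replicates were separate cultures. Each p-value therefore measures the spread between these samples only, and that spread may be technical.

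p53 is a transcription factor that is kept low by MDM2, a ubiquitin ligase and itself the product of a p53 target gene. Nutlin-3 occupies the p53 pocket of MDM2, so that p53 accumulates and its targets, among them the cyclin-dependent kinase inhibitor gene CDKN1A, are transcribed. Induced p21 keeps RB family proteins active, and the genes of DNA replication and mitosis are then shut down. iASPP, the product of PPP1R13L, is the inhibitory member of the ASPP family of p53-binding proteins and has also been tied to NF-kB p65 and to KEAP1, the sensor of the NRF2 pathway.

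Levels are given as FPKM (fragments mapped per kilobase of transcript, scaled to library size), the unit of the authors' deposited table, with replicate 1 first and replicate 2 second. Differences are on the log2(FPKM + 1) scale, which understates the change of low genes, and each carries its standard error. Tests are limma's moderated test in 1 fit of 8 group means over the 10662 genes whose mean reached 1 FPKM, and genes passed at a Benjamini-Hochberg adjusted p below 0.05. With 2 libraries against 2, an exact test could not give a p below 0.333.

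The silenced gene was low in both libraries meant to lack it. PPP1R13L (chr19:45379634-45406349, minus strand, GRCh38) stood at 17.1 and 18.9 FPKM with CTR siRNA+nutlin and at 0.807 and 1.296 FPKM with iASPP siRNA+nutlin. The groups did not overlap, and the difference was -3.22 ± 0.36 (limma, adjusted p = 0.00914). Without nutlin the same siRNA left 0.541 and 0.279 FPKM, against 9.95 and 8.69 with CTR siRNA.

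The 2 iASPP siRNA+nutlin libraries differed from each other far more than the 2 controls did, and levels of the genes described are therefore given for each library. Among genes at 100 FPKM or more, the 2 libraries of a pair lay a median absolute log2 difference apart of 0.2588 in iASPP siRNA+nutlin and 0.0653 in CTR siRNA+nutlin. Differences of at least 2-fold between replicates affected 814 genes (7.635%) in the first group and 243 (2.279%) in the second. Of those 814 genes, 642 were higher and 172 lower in replicate 2. Wide pairs also occurred in p53 siRNA+nutlin and p53+iASPP siRNA+nutlin (0.1972 and 0.1782), while the 4 groups without nutlin lay between 0.0512 and 0.0665. Replicate 2 of these 3 nutlin groups is called a diverging library below. Depth read from the steps of low values, relative to CTR siRNA+nutlin replicate 1, was 0.818 and 4.814 in the iASPP siRNA+nutlin libraries and 4.438 in CTR siRNA+nutlin replicate 2, so replicate 2 was the deeper library in both arms. Epithelial markers summed to 5716 and 5842 FPKM in the controls and to 5417 and 4390 FPKM with iASPP siRNA. In each of the 4 libraries 8 of 10 were at 1 FPKM or more, while the colonic factor CDX1 was listed at 0. Summed fibroblast, immune and endothelial markers reached at most 4.71 FPKM in any of them.

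Across the 10662 genes tested, 82 (0.769%) passed the threshold. Of these, 54 (0.506%) were higher and 28 (0.263%) lower with iASPP siRNA+nutlin, and at least a 2-fold change was reached by 17 of the higher and 10 of the lower. The libraries did not overlap in any of the 82, but they also did not overlap in 4486 genes (42.1%), of which 29% of all genes tested were higher and 13.1% lower. An unadjusted p under 0.05 was reached by 1692 genes (15.9%). The median difference over all genes was 0.073, made of -0.005 in replicate 1 and 0.151 in replicate 2, each set against the control mean. A fit that leaves 1 library in an arm takes its spread from the other groups. Its counts, here and below, show only how far the calls depend on the libraries kept. The number of calls rested on single libraries. It was 581 (239 higher and 342 lower) without iASPP siRNA+nutlin replicate 2, 414 without iASPP siRNA+nutlin replicate 1, 0 without CTR siRNA+nutlin replicate 1 and 20 without CTR siRNA+nutlin replicate 2. As the libraries did not overlap in any of the 82 genes, leaving out 1 of the 4 could not change a gene's direction. Rescaling the libraries by median-of-ratios factors gave 84 calls, of which 30 were higher and 54 lower and 58 were among the 82. The excess of higher calls was therefore absent under that scaling and also without iASPP siRNA+nutlin replicate 2.

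**Figure D1:**
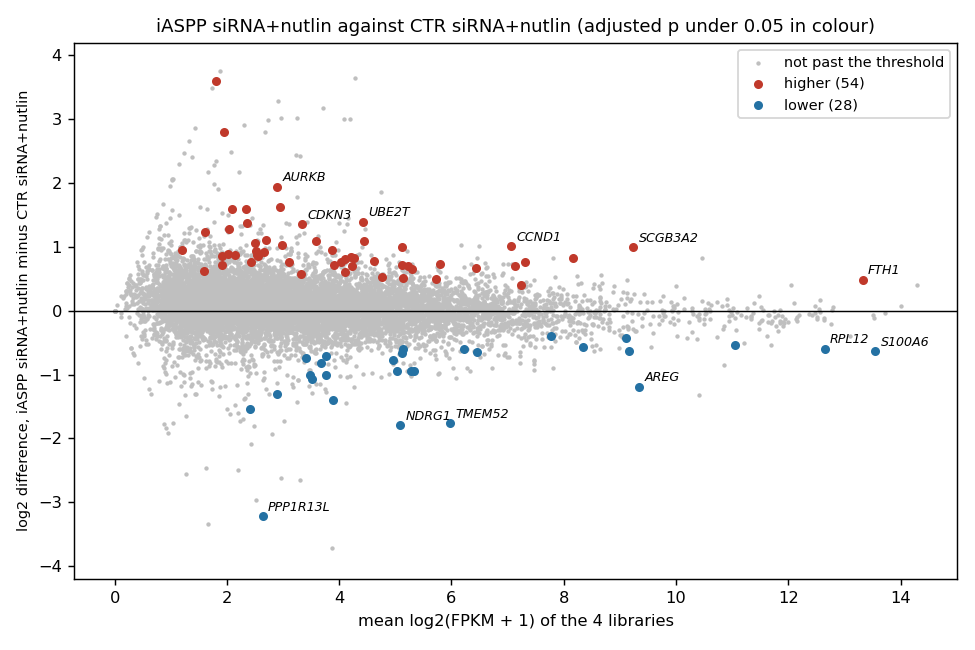
Log2(FPKM + 1) difference between iASPP siRNA+nutlin and CTR siRNA+nutlin (vertical axis) against the mean level of the 4 libraries (horizontal axis) for the 10662 genes tested; each point is a gene, and colour marks an adjusted p under 0.05. The 54 higher genes sit mostly at low and middle levels, and the 28 lower ones include the abundant transcripts of S100A6 and RPL12.

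The 12 largest rises among genes with a symbol included 7 genes of cell division. AURKB, AURKA, BIRC5, RACGAP1, TACC3, CENPK and CDKN3 act in mitosis or cytokinesis or control the kinases that drive it. HELLS remodels chromatin, UBE2T is the ubiquitin-conjugating enzyme of the Fanconi anaemia pathway and HIST1H2AB is a histone gene made in S phase. AURKB (chr17:8204733-8210600, minus strand), the kinase of the chromosomal passenger complex, was at 3.81 and 1.96 FPKM with CTR siRNA+nutlin and at 9.98 and 18.2 FPKM with iASPP siRNA+nutlin. Both iASPP-depleted libraries lay above both controls, and the difference was 1.94 ± 0.27 (limma, adjusted p = 0.0123). For scale, cells without nutlin held 116 and 103 FPKM with CTR siRNA and 52.8 and 57.9 with iASPP siRNA, so even the higher nutlin library stayed well under them.

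BIRC5 (chr17:78214186-78225636, plus strand), which encodes survivin, a partner of AURKB, went from 1.55 and 1.36 FPKM to 3.85 and 10.3 FPKM (1.59 ± 0.29, limma adjusted p = 0.0415). AURKA (chr20:56369389-56392337, minus strand), the centrosomal Aurora kinase, had 1.89 and 1.98 FPKM in the controls and 5.595 and 10.8 FPKM after iASPP siRNA (1.59 ± 0.23, limma adjusted p = 0.0173). In AURKB, AURKA and BIRC5 replicate 2 was the higher of the iASPP-depleted libraries, and replicate 1 was itself above both controls. RACGAP1, a component of the central spindle needed for cytokinesis, measured 2.802 and 4.08 FPKM against 8.76 and 17.9 FPKM with iASPP siRNA (1.63 ± 0.26, limma adjusted p = 0.0316). CDKN3, a phosphatase that acts on cyclin-dependent kinases, showed a narrower pair, from 5.72 and 4.895 FPKM to 13.8 and 16.5 FPKM (1.35 ± 0.17, limma adjusted p = 0.0123). UBE2T rose from 13.8 and 10.9 FPKM to 23.8 and 48.2 FPKM (1.40 ± 0.24, limma adjusted p = 0.0343), with replicate 2 far above replicate 1. TACC3, a spindle protein, was at 1.45 and 3.13 FPKM against 6.65 and 7.95 FPKM, HELLS at 1.82 and 1.48 FPKM against 4.04 and 7.18 FPKM and CENPK, a kinetochore subunit, at 1.201 and 0.807 FPKM against 4.39 and 3.04 FPKM, with rises of 1.23 to 1.38 on the same scale and replicate 2 the higher of the depleted pair in TACC3 and HELLS but not in CENPK. HIST1H2AB was listed at 0 in both controls and at 11.3 and 10.97 FPKM with iASPP siRNA+nutlin, so no fold is given. The clone-named locus CTC-479C5.12, second by size of rise (0 and 1.14 FPKM to 10.2 and 8.14 FPKM), was left out of the 12 because it has no gene symbol. The 2 remaining genes of the 12 were PIP4K2A, a phosphoinositide kinase (6.37 and 8.103 FPKM to 15.6 and 17.6 FPKM), and PRADC1 (3.51 and 3.32 FPKM to 7.64 and 9.55 FPKM).

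**Figure D2:**
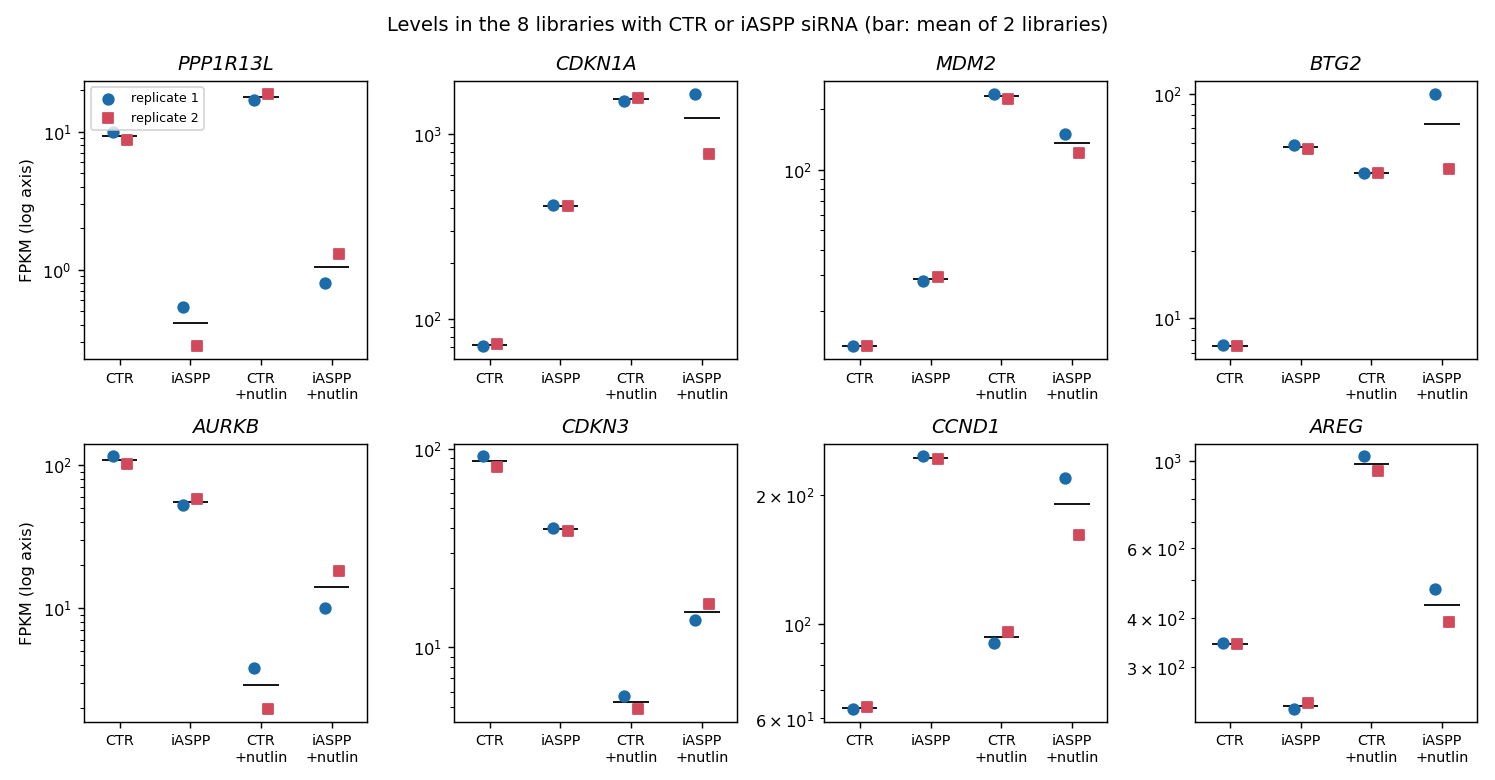
FPKM (log axis, different for each panel) of 8 genes in the 8 libraries with CTR or iASPP siRNA, without and with nutlin; points are libraries and bars the mean of 2. AURKB and CDKN3 are higher in both iASPP siRNA+nutlin libraries than in both controls, whereas CDKN1A in replicate 2 (776 FPKM) is below, and in replicate 1 (1656 FPKM) above, its controls.

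Promoters are shown for genes that rose because many mitotic promoters carry a cell cycle homology region, a short element bound by the DREAM and MuvB complexes through which active p53 and p21 are known to repress cell cycle genes. The sequences are RefSeq windows of GRCh38.p14 from 250 bases before to 50 after a start site, read 5′ to 3′ on the gene's strand. The letters searched were TTTGAA and TTCGAA on both strands, so that TTCAAA, the reverse complement of the first, also counts, while the second is its own reverse complement. Capitals mark a match. The windows of UBE2T (chr1:202341887-202342186, minus strand) and CDKN3 (chr14:54396757-54397056, plus strand) each hold 1 match, whose first base lies 153 and 170 bases before the start site. The first of the RefSeq windows of AURKB (chr17:8210176-8210475, minus strand) holds none and is shown beside them.
UBE2T: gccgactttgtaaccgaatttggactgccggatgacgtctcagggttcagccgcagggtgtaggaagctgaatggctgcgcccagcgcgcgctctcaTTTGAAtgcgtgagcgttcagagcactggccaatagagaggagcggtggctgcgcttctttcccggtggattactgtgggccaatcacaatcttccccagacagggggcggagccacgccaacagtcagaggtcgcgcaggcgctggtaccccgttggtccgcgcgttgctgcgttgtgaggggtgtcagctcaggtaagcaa
CDKN3: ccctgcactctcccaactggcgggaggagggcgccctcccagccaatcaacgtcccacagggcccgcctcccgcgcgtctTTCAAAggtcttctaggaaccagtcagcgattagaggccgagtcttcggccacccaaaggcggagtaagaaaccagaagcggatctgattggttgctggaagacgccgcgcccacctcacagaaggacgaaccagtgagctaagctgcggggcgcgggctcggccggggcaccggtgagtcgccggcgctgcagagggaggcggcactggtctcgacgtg
AURKB: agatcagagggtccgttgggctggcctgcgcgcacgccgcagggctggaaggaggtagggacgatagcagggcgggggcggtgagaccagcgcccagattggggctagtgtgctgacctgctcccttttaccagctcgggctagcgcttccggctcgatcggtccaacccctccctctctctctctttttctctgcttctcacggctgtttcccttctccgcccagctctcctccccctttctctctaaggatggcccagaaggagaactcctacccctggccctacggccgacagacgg
Of the 12 genes with a symbol that rose most, 8 had a window and 2 of these held a match. Among all 35116 windows the share was 16.4%, and among tested genes with a window it was 14.9%. It was 75.8% (25 of 33) for the G2/M and mitosis list used below, 5.7% for the DNA replication and G1/S list, 13.5% for the genes that rose and 4.5% for those that fell. A match describes these letters only.

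Most genes of the mitotic list leaned the same way on average, mostly through replicate 2. The G2/M and mitosis list held 40 genes, all tested, of which 3 rose (AURKB, AURKA and BIRC5), 0 fell and 39 had a difference above 0, where 60.4% of all genes tested did. Its median was 0.794, against 0.073 over all genes. Replicate 1 lay a median of 0.135 above the control mean and replicate 2 a median of 1.492 above it, and 39 of the 40 genes were higher in replicate 2 than in replicate 1 (64.4% of all genes tested were). In replicate 1, 26 of the 40 genes lay above both controls and 11 under both (41.3% and 41.1% of all genes tested did). In replicate 2, 39 lay above both and 0 under both (58.2% and 21.8% of all genes tested did). In replicate 2 each of the 40 genes lay between the mean of CTR siRNA+nutlin and the mean of iASPP siRNA without nutlin. That held for 26 of the 40 in replicate 1, and for 32.6% and 47.8% of all genes tested in replicates 1 and 2. The interval is wide in genes such as AURKB, so the shares over all genes are not a like comparison.

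CCNB1, the cyclin that drives entry into mitosis, is an example of a gene that stood out in replicate 2 alone, with 11.02 and 7.17 FPKM in the controls and 12.9 and 46.2 FPKM after iASPP siRNA. It did not pass (1.37 ± 0.41, limma adjusted p = 0.143). DLGAP5, a spindle assembly factor, was at 0.18005 and 0.262 FPKM against 0.662 and 3.68 FPKM, and KIF2C, a kinesin that depolymerises microtubules, at 0.494 and 0.267 FPKM against 0.941 and 3.47 FPKM. In both, replicate 2 was several times replicate 1, and neither passed. These genes and CCNB1 were chosen after their values were seen.

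DNA replication genes showed the same layout with a smaller gap. All 40 genes of the G1/S list had a difference above 0, with a median of 0.675, and 1 rose. That gene was TYMS, the thymidylate synthase that makes dTMP, at 66.6 and 68.3 FPKM in the controls and 101 and 116 FPKM with iASPP siRNA (0.67 ± 0.09, limma adjusted p = 0.0123). Its 2 control values were close together and both iASPP-depleted values exceeded them. The list's median was 0.144 in replicate 1 and 1.039 in replicate 2. In these libraries 23 and 39 of its 40 genes lay above both controls (41.3% and 58.2% of all genes tested did). CCNE1, the G1/S cyclin, narrowly missed the threshold, from 12.5 and 7.86 FPKM to 18.7 and 19.2 FPKM (0.87 ± 0.18, limma adjusted p = 0.0527). MCM5, a helicase subunit, was at 5.18 and 5.44 FPKM against 10.7 and 15.9 FPKM (1.16 ± 0.28, limma adjusted p = 0.0912). Both were named after their values were seen.

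Replication-dependent histone genes differed in layout, with similar list medians in both libraries. The list used does not include HIST1H2AB, which passed. Of its 17 genes tested, 14 had a difference above 0 and none passed by limma with adjustment. Of the 17, 4 were higher at an unadjusted p under 0.05 (11.3% of all genes tested were). Their median was 0.776 in replicate 1 and 0.713 in replicate 2. HIST1H2AC came nearest, at 7.36 and 12.3 FPKM against 23.9 and 18.9 FPKM (1.08 ± 0.24, limma adjusted p = 0.0725), and HIST1H4H followed with 0 and 0.043 FPKM against 2.498 and 2.05 FPKM. These transcripts lack poly(A) tails for the most part and belong to a family of near-identical genes, so their values, HIST1H2AB included, are uncertain in libraries of bead-purified mRNA.

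**Figure D3:**
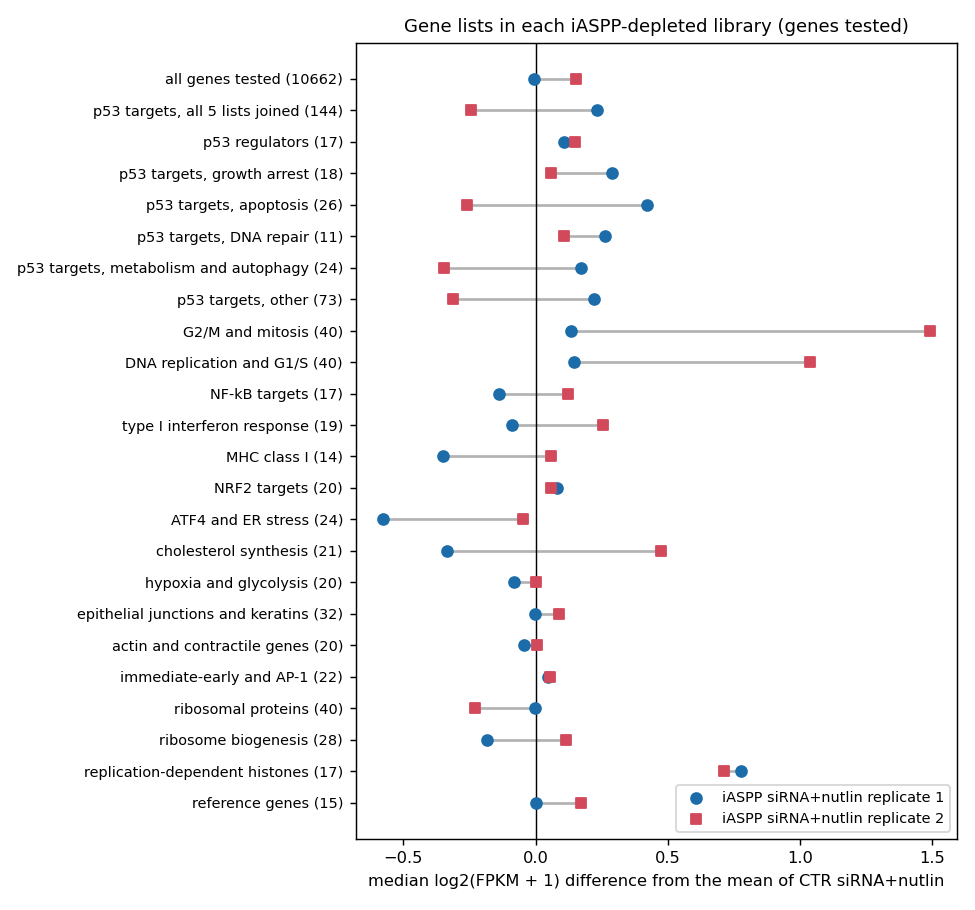
Median log2(FPKM + 1) difference from the mean of CTR siRNA+nutlin, for each gene list (number of genes tested in brackets), in iASPP siRNA+nutlin replicate 1 (circles) and replicate 2 (squares). The G2/M list spans 0.135 to 1.492, the p53 target lists joined go from 0.231 in replicate 1 to -0.245 in replicate 2, and the ATF4 and ER stress list is lowest in replicate 1 (-0.577).

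Among direct targets of p53, most lay above both controls in replicate 1 of iASPP siRNA+nutlin and most lay under both in replicate 2. Over 5 lists joined, 144 of 180 listed genes were tested, and 1 rose, POLK. The median difference was 0.036, and -0.035 after median-of-ratios scaling, so its sign depends on the scaling. In replicate 1 the median was 0.231 above the control mean and 92 of the 144 genes exceeded both controls (41.3% of all genes tested did), whereas in replicate 2 it was -0.245 and 91 were under both controls (21.8% of all genes tested were). Taken directly, 116 of the 144 were lower in replicate 2 than in replicate 1, while 64.4% of all genes tested were higher in it. By role, the median difference was 0.213 in growth arrest, 0.076 in apoptosis and 0.125 in DNA repair. It was -0.031 in metabolism and autophagy and -0.045 in the list of other targets, the largest with 73 genes tested. After the same scaling these were 0.136, -0.003, 0.043, -0.094 and -0.121. The replicate medians of the joined lists kept their signs (0.246 and -0.42). In the same order, the medians of the 5 lists without scaling were 0.291, 0.421, 0.264, 0.173 and 0.219 in replicate 1. In replicate 2 they were 0.057, -0.26, 0.109, -0.346 and -0.311.

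CDKN1A (chr6:36676460-36687339, plus strand), which encodes p21, illustrates the split. It was at 1509.7 and 1577 FPKM with CTR siRNA+nutlin and at 1656 and 776 FPKM with iASPP siRNA+nutlin. Replicate 1 thus lay just above both controls and replicate 2 at about the midpoint between them and 0, and the mean difference did not pass (-0.44 ± 0.38, limma adjusted p = 0.612). Without iASPP siRNA+nutlin replicate 2 the difference turned to 0.10. FAS, the death receptor, had 52.2 and 57.3 FPKM in the controls and 106 and 40.4 FPKM with iASPP siRNA. BTG2, an antiproliferative gene, was likewise far above its controls in replicate 1 only (44.1 and 44.4 FPKM against 100.002 and 46.04 FPKM). TP53I3, a quinone oxidoreductase gene, was at 244 and 286 FPKM against 271 and 117 FPKM, so here replicate 1 lay among the controls and replicate 2 under them. None of these passed (limma adjusted p = 0.777, 0.39 and 0.51), and FAS, BTG2 and TP53I3 were named after their values were seen.

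Both iASPP-depleted libraries lay under both controls in 30 of the 144 targets (20.8%, against 13.1% of all genes tested) and above both in 33 (22.9%, against 29% of all genes tested). Of those lower in both, none passed. MDM2 (chr12:68808176-68850686, plus strand) was at 239 and 225 FPKM in the controls and 150.2 and 121 FPKM with iASPP siRNA (-0.78 ± 0.45, limma adjusted p = 0.433). GDF15, a stress cytokine, was at 2440.3 and 2547 FPKM against 1513 and 1262 FPKM (-0.85 ± 0.23, limma adjusted p = 0.123). FDXR, the mitochondrial ferredoxin reductase, came closer, at 191 and 202 FPKM against 126 and 97.9 FPKM (-0.82 ± 0.19, limma adjusted p = 0.0901). SFN, the 14-3-3 sigma gene of the G2 checkpoint, was at 899 and 925 FPKM against 771 and 492 FPKM (-0.56 ± 0.16, limma adjusted p = 0.135). In each of these genes replicate 2 was the lowest of the 4 libraries. PGF, a vascular growth factor, was at 15.1 and 16.1 FPKM against 7.32 and 5.39 FPKM, and ZNF337 at 5.06 and 3.94 FPKM against 2.86 and 2.56 FPKM.

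Of the 33 targets higher in both libraries, 1 passed. POLK, a translesion polymerase, rose from 1.96 and 1.95 FPKM to 4.13 and 3.56 FPKM (0.71 ± 0.14, limma adjusted p = 0.0453). It missed the threshold under 9 of 12 alternatives, among them median-of-ratios scaling, the replicate block and leaving out either control library. PMAIP1, which encodes the BH3-only protein NOXA, was at 67.4 and 57.8 FPKM against 129.8 and 83.3 FPKM but did not pass (0.73 ± 0.17, limma adjusted p = 0.0906). PLK2, a Polo-like kinase, was at 76.4 and 76.8 FPKM against 104 and 94.7 FPKM (0.37 ± 0.11, limma adjusted p = 0.141). Without nutlin the joined targets had a median iASPP siRNA difference of 0.421, a value from 4 libraries that this comparison does not use.

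**Figure D4:**
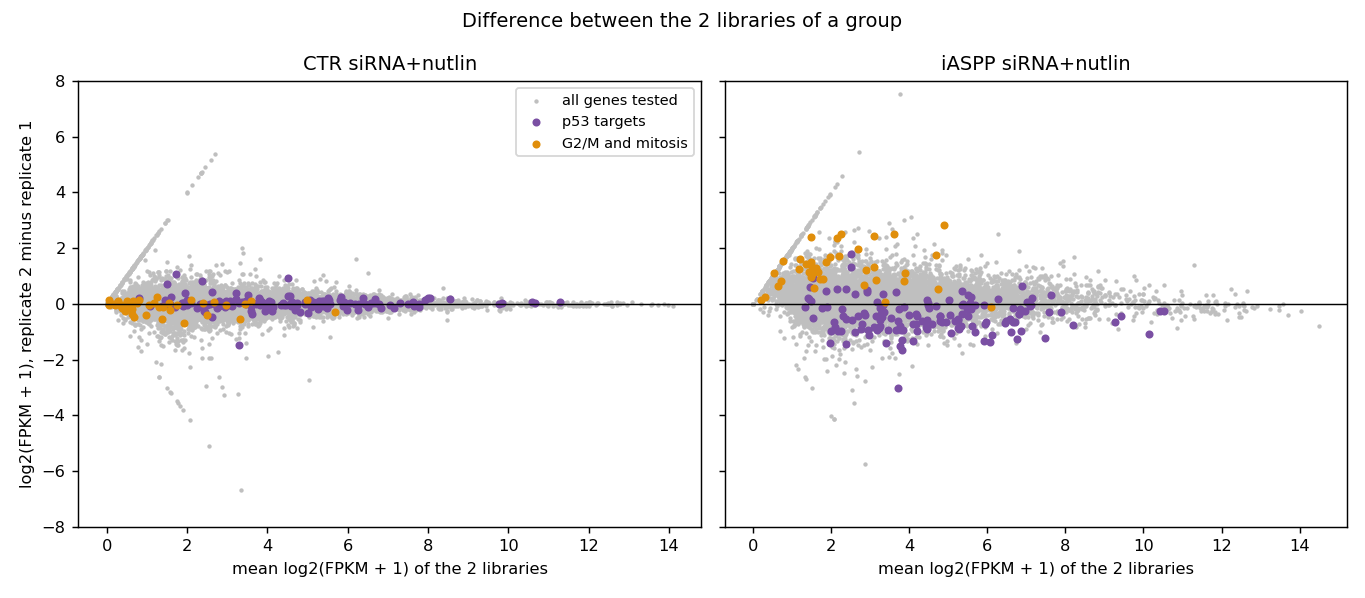
Replicate 2 minus replicate 1 in log2(FPKM + 1) (vertical axis) against the mean of the pair (horizontal axis), for CTR siRNA+nutlin (left) and iASPP siRNA+nutlin (right); grey points are all genes tested. In the right panel 39 of 40 G2/M genes (orange) lie above 0 and 116 of 144 p53 targets (purple) below it; diagonal rows of points are genes listed at 0 in 1 library.

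Among regulators of p53 other than PPP1R13L, none of the other 16 tested passed by limma. By unadjusted p (under 0.05) 2 were higher and 0 lower (11.3% and 4.6% of all genes tested were). HIPK2, a kinase that phosphorylates p53, was at 2.04 and 2.07 FPKM against 3.18 and 3.26 FPKM, and CDKN2A, whose alternate product ARF binds MDM2, at 15.6 and 14.3 FPKM against 27.98 and 21.04 FPKM. TP53BP2, which encodes the stimulating family member ASPP2, was at 4.22 and 4.17 FPKM against 5.99 and 4.76 FPKM (0.29 ± 0.13, limma adjusted p = 0.322). These 3 were named after their values were seen.

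The largest falls after PPP1R13L were in genes of varied function. NDRG1, a stress and hypoxia responsive gene, fell from 60.6 and 63.4 FPKM to 13.8 and 21.3 FPKM (-1.79 ± 0.36, limma adjusted p = 0.0497). TMEM52, a transmembrane protein gene, fell from 127 and 105 FPKM to 43.4 and 25.5 FPKM (-1.76 ± 0.28, limma adjusted p = 0.0295). PRODH, a proline dehydrogenase gene known as a p53 target but not in the lists used here, fell from 9.26 and 7.05 FPKM to 2.73 and 1.597 FPKM (-1.55 ± 0.27, limma adjusted p = 0.0346). In these and in each of the other genes that fell, both iASPP-depleted libraries were under both controls. AREG (chr4:74445134-74455009, plus strand), which encodes amphiregulin, a ligand of the EGF receptor, had 1027 and 942 FPKM in the controls and 472 and 391 FPKM with iASPP siRNA (-1.19 ± 0.14, limma adjusted p = 0.00914). ENO2, a glycolytic enolase, was at 16.3 and 14.9 FPKM against 5.54 and 8.598 FPKM, and NR4A2, an orphan nuclear receptor induced as an immediate-early gene, at 14.8 and 14.9 FPKM against 7.43 and 6.41 FPKM. SHC1, the adaptor that links growth factor receptors to RAS, was at 52.6 and 57.9 FPKM against 27.4 and 29.03 FPKM. GABRD, PKIB, DNAJB2 and NT5C, a GABA receptor subunit, a protein kinase A inhibitor, a co-chaperone and a nucleotidase, completed the 12, with differences of -1.40, -1.30, -1.01 and -0.95 on the log2 scale. GABRD was at 29.2 and 18.4 FPKM against 8.97 and 7.43 FPKM and PKIB at 12.5 and 8.96 FPKM against 2.48 and 5.37 FPKM, and in PKIB replicate 1 was the lower of the depleted pair. DNAJB2 was at 16.4 and 20.2 FPKM against 7.91 and 9.25 FPKM and NT5C at 54.9 and 51.6 FPKM against 21.2 and 34.6 FPKM.

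Several growth control genes outside the naming rule also passed, and are given here as chosen after their values were seen. CCND1 (chr11:69641087-69654474, plus strand), the cyclin D1 gene, rose from 90.4 and 95.8 FPKM to 219 and 162 FPKM (1.01 ± 0.12, limma adjusted p = 0.0123). EGFR, the receptor that amphiregulin binds, rose from 3.53 and 3.62 FPKM to 8.57 and 6.81 FPKM (0.92 ± 0.17, limma adjusted p = 0.0415). Amphiregulin, SHC1 and the receptor thus did not move one way. MYD88, the adaptor of Toll-like and interleukin-1 receptors, rose from 4.12 and 4.97 FPKM to 10.7 and 9.76 FPKM (1.02 ± 0.14, limma adjusted p = 0.0123). S100A6, a calcium-binding protein gene, shared the lowest adjusted p of all genes with PPP1R13L and AREG, and fell from 14882 and 14955 FPKM to 10252 and 9033 FPKM (-0.63 ± 0.07, limma adjusted p = 0.00914). KLF10, a transforming growth factor beta inducible repressor from the immediate-early list, rose from 11.8 and 11.95 FPKM to 19.3 and 24.3 FPKM (0.81 ± 0.14, limma adjusted p = 0.0343). It was the only 1 of 22 tested genes in that list to pass.

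Of 20 NRF2 targets tested, 2 rose and none fell, and their median was 0.009 (-0.072 after median-of-ratios scaling). FTH1, the ferritin heavy chain that stores iron, rose from 8504 and 8826 FPKM to 12157 and 12068 FPKM (0.48 ± 0.06, limma adjusted p = 0.0123). ABCC2, an export pump for conjugates, rose from 7.47 and 6.93 FPKM to 10.98 and 11.4 FPKM (0.57 ± 0.10, limma adjusted p = 0.0415). In both genes the iASPP-depleted libraries were close to each other. Neither passed after median-of-ratios scaling or without CTR siRNA+nutlin replicate 1, and ABCC2 also missed with the replicate block. NQO1, a quinone reductase and the usual index of the pathway, lay instead under its controls (202 and 216 FPKM against 178 and 176 FPKM, limma adjusted p = 0.258), and it was named after its values were seen. CYBRD1, a ferric reductase outside the list, rose from 3.21 and 2.66 FPKM to 7.75 and 6.63 FPKM.

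Ribosomal protein genes mostly lay slightly under their controls on average, through replicate 2. Of 40 tested, 32 had a difference below 0, as did 4201 of the 10662 genes tested. The list's median was -0.105 against 0.073 over all genes, and 1 of the 40 fell. RPL12 went from 7964 and 7785 FPKM to 4612 and 5875 FPKM (-0.60 ± 0.10, limma adjusted p = 0.0343). RPL3 narrowly missed the threshold, from 4016 and 3949.9 FPKM to 2688 and 2792 FPKM (-0.54 ± 0.11, limma adjusted p = 0.0501). The list's median was -0.001 in replicate 1 and -0.228 in replicate 2 (0.014 and -0.407 after median-of-ratios scaling), and 16 of 40 genes were under both controls in both libraries, against 13.1% of all genes tested. RPS24, outside the list, fell from 2587 and 2542 FPKM to 1675 and 1852 FPKM (-0.54 ± 0.10, limma adjusted p = 0.0401). Unlike the list's median, RPL12, RPL3 and RPS24 were lower in replicate 1 than in replicate 2. Of 28 ribosome biogenesis genes none passed by limma. By unadjusted p (under 0.05) 2 were higher and 2 lower (11.3% and 4.6% of all genes tested were). The 2 with the smallest p were UTP20 (0.761 and 0.644 FPKM against 1.21 and 1.44 FPKM) and FBL (495 and 495 FPKM against 426 and 381 FPKM).

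Stress genes separated the libraries the other way round from cell division, since replicate 1 was the one farther from its controls. In the ATF4 and ER stress list, 24 genes tested, none passed by limma and 7 were lower at an unadjusted p under 0.05 (4.6% of all genes tested were). Replicate 1 had a median of -0.577 and 20 of 24 genes under both controls, while replicate 2 had a median of -0.048 and 11 under both. Over all genes tested, 41.1% in replicate 1 and 21.8% in replicate 2 were under both. ATF4, the factor that induces amino acid synthesis, was at 156 and 153 FPKM against 72.5 and 131 FPKM, and ASNS, the asparagine synthetase, at 50.6 and 54.9 FPKM against 19.8 and 43.9 FPKM. Of the chaperone genes of the endoplasmic reticulum, SDF2L1 was at 82.8 and 67.9 FPKM against 42.7 and 49.1 FPKM. HSPA5 was at 122 and 123 FPKM against 67.7 and 109 FPKM. After median-of-ratios scaling the list's medians were -0.583 in replicate 1 and -0.219 in replicate 2.

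Cholesterol synthesis genes lay mostly below the controls in replicate 1 and above them in replicate 2. Of 21 tested, 20 were higher in replicate 2 than in replicate 1 (64.4% of all genes tested were). The medians were -0.335 in replicate 1 and 0.475 in replicate 2, and -0.328 and 0.297 after median-of-ratios scaling. None passed by limma, and 0 reached an unadjusted p under 0.05. ACAT2, the enzyme of the first step, was at 5.21 and 5.09 FPKM in the controls and 5.93 and 12.2 FPKM with iASPP siRNA. SC5D, the desaturase of a late step, was at 20.2 and 20.5 FPKM against 22.8 and 38.8 FPKM. FDFT1, squalene synthase, chosen after its values were seen, was at 189 and 175 FPKM against 94.6 and 235 FPKM. Replicate 1 alone was low there and replicate 2 was above both controls.

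In the remaining lists 1 gene passed, NDRG1, among 20 hypoxia and glycolysis genes. No gene passed by limma among 17 NF-kB targets (0 higher and 2 lower by unadjusted p), 19 interferon response genes (2 and 1), 14 MHC class I genes (2 and 2), 32 epithelial junction and keratin genes (1 and 6), 20 actin and contractile genes (1 and 1) and 15 reference genes (3 and 0). Over all genes tested, 11.3% were higher and 4.6% lower by unadjusted p (under 0.05). The NF-kB targets with the smallest p were ICAM1 (1.99 and 2.205 FPKM against 0.913 and 1.52 FPKM) and IER3 (437 and 434 FPKM against 205 and 433 FPKM). Replicate 2 of IER3 was at the level of the controls and replicate 1 under it. ISG15, a ubiquitin-like interferon product, was at 479.5 and 504 FPKM against 418 and 251 FPKM, and USP18, its protease, at 1.69 and 1.63 FPKM against 2.53 and 2.79 FPKM. Of the antigen presentation genes, CALR was at 449 and 469 FPKM against 265 and 373 FPKM and B2M at 365 and 339.6 FPKM against 418 and 541 FPKM. KRT19, a simple epithelial keratin, was at 2763 and 2882 FPKM against 2421 and 1615 FPKM and F11R, a tight junction adhesion molecule, at 8.29 and 8.61 FPKM against 11.7 and 14.2 FPKM. ACTN4, an actin crosslinker, was at 96.3 and 96.1 FPKM against 79.7 and 75.1 FPKM. Bulk RNA cannot tell fewer cells of a kind from less RNA per cell.

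The effect of iASPP siRNA was then compared between cells with and without nutlin, as a difference of differences. The test called 109 genes (1.02%), of which 88 (0.825%) were above 0, where iASPP siRNA moved the gene further up with nutlin than without it, and 21 (0.197%) below 0. An unadjusted p under 0.05 was reached by 2008 genes (18.8%). Under median-of-ratios scaling 66 were above and 58 below, and the median over all genes moved from 0.164 to 0.012. The count was 164 without iASPP siRNA+nutlin replicate 2, 1230 without iASPP siRNA+nutlin replicate 1, and 0 to 26 without any 1 of the other 6 libraries.

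Of the lists, 12 of the 40 G2/M genes and 3 of the 40 G1/S genes passed above 0 (0.825% of all genes tested did). Without nutlin, AURKB was at 116 and 103 FPKM with CTR siRNA and 52.8 and 57.9 FPKM with iASPP siRNA, whereas with nutlin the iASPP-depleted group was the higher one, as given above. The difference of differences was 2.91 ± 0.38 (limma, adjusted p = 0.0136). NUSAP1, a spindle microtubule protein, was at 52.4 and 51.4 FPKM against 12.5 and 16.7 FPKM without nutlin and at 1.12 and 1.07 FPKM against 1.17 and 6.03 FPKM with it (2.68 ± 0.54, limma adjusted p = 0.0477). RACGAP1 gave 2.66 ± 0.37. HIST1H2AB also stood at the top, but with both CTR siRNA+nutlin libraries listed at 0. EFCAB11, an EF-hand gene, went from 12.7 and 8.79 FPKM to 1.15 and 1.63 FPKM without nutlin and from 1.66 and 2.74 FPKM to 3.91 and 4.86 FPKM with it (3.05 ± 0.39, limma adjusted p = 0.0136).

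Of the joined p53 targets, 6 of 144 passed below 0 and 1 above (0.197% and 0.825% of all genes tested did). CDKN1A was at 70.7 and 72.7 FPKM with CTR siRNA and 411 and 406 FPKM with iASPP siRNA when nutlin was absent, whereas with nutlin its 2 iASPP-depleted libraries lay on either side of the controls. Its difference of differences was -2.94 ± 0.54 (limma, adjusted p = 0.0354). SFN, at 166 and 179.7 FPKM against 384 and 372 FPKM without nutlin, gave -1.69 ± 0.23 (limma, adjusted p = 0.0145). FDXR, at 28.9 and 32.5 FPKM against 51.1 and 51.5 FPKM without nutlin, gave -1.54 ± 0.28 (limma, adjusted p = 0.0315). In both, iASPP siRNA went with higher levels in untreated cells and lower ones in nutlin. GALNT5, a mucin-type glycosyltransferase gene, was at 1.78 and 1.82 FPKM against 3.904 and 4.03 FPKM without nutlin and 15.3 and 14.4 FPKM against 10.98 and 5.798 FPKM with it, and the unnamed locus RP11-467J12.4 at 0.624 and 0.447 FPKM against 4.65 and 3.64 FPKM and 5.25 and 4.14 FPKM against 4.796 and 4.32 FPKM.

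**Figure D5:**
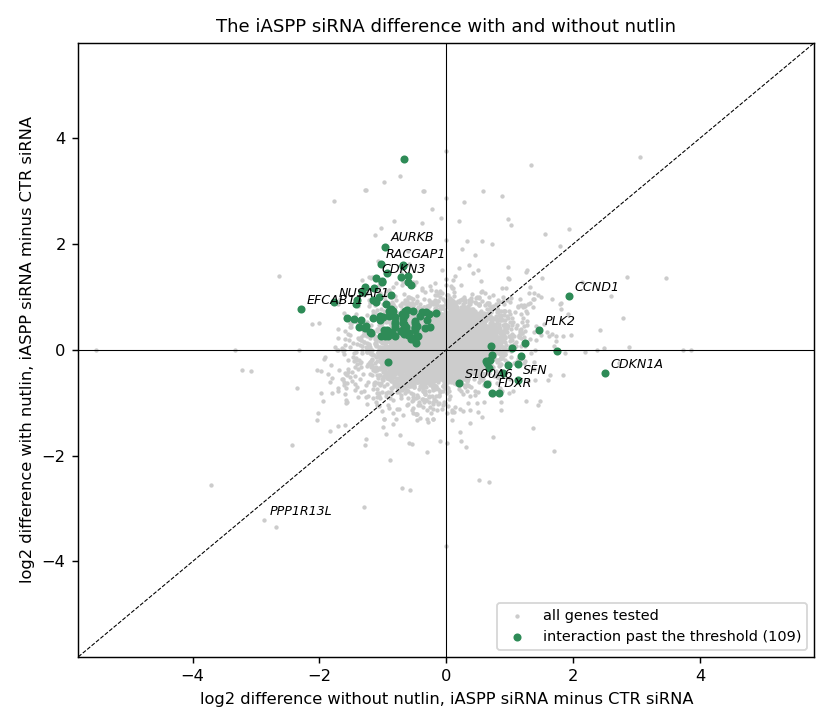
Log2(FPKM + 1) difference between iASPP and CTR siRNA with nutlin (vertical axis) against the same without nutlin (horizontal axis); each point is a gene, and the 109 genes past the threshold in the difference of differences are green. AURKB, RACGAP1, NUSAP1 and CDKN3 lie in the upper left, lower without and higher with nutlin, and CDKN1A, SFN and FDXR at the lower right; the dashed line marks equal differences.

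Set beside the same siRNA contrast in untreated cells, which uses other libraries, 33 of the 54 genes that rose were also above 0 there (40.0% of all genes tested were) and 25 of the 28 that fell were below 0 (59.9% were). CCND1 was at 63.1 and 63.8 FPKM against 247 and 243 FPKM without nutlin, NDRG1 at 54.9 and 52.9 FPKM against 8.34 and 10.02 FPKM, and RPL12 at 7423 and 7406 FPKM against 4032 and 4181 FPKM. These had the same sign in both settings, as did FTH1 and PPP1R13L. The CCND1 difference was smaller with nutlin (1.01) than without it (1.93). Its difference of differences passed (-0.92 ± 0.17, limma adjusted p = 0.0379). AREG was at 345 and 343 FPKM against 235 and 244 FPKM. TMEM52, by contrast, was at 19.5 and 18.1 FPKM against 20.1 and 17.98 FPKM in untreated cells, so that its groups overlapped there.

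Where p53 was silenced as well, the question was whether iASPP siRNA still changed these genes under nutlin. The difference of the iASPP effect between p53-silenced and control cells, both with nutlin, passed for 0 genes by limma, with a lowest adjusted p of 0.47, and 774 genes (7.26%) had an unadjusted p under 0.05. Against p53 siRNA+nutlin, p53+iASPP siRNA+nutlin had the same sign as the main comparison in 42 of the 54 genes that rose and 25 of the 28 that fell, where 46.8% of all genes tested were above 0 and 53.1% below. Of the 82 genes, PPP1R13L passed in that contrast (limma, adjusted p = 0.0486) and the other 81 did not (limma, lowest adjusted p = 0.961). Among all genes tested PPP1R13L was also the only 1 to pass there, and 495 (4.64%) had an unadjusted p under 0.05. The lack of calls among the 81 thus does not set them apart from other genes. AURKB was at 97.1 and 70.4 FPKM with p53 siRNA+nutlin and 91.1 and 90.8 FPKM with p53+iASPP siRNA+nutlin, and CDKN1A at 47.4 and 107 FPKM and 83.1 and 141 FPKM. The levels of S100A6 there were 5476 and 6077 FPKM and 5257 and 5046 FPKM. Its difference of differences between p53-silenced and control cells did not pass (0.47 ± 0.10, limma adjusted p = 0.636). Each of these 2 groups also holds 1 diverging library. Without the 3 diverging libraries 274 genes passed this test, 124 above and 150 below 0, on a spread estimated from the 5 close pairs alone.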

How the data were processed

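The deposited table gives FPKM for 20271 genes in 16 libraries, computed by the authors. Per the labels' protocols, mRNA was purified on beads from total RNA and sequenced on Illumina libraries. Per the submitters' processing notes, edgeR and the genome hg38 (GRCh38) were used. The aligner, read counter, annotation and edgeR version were not given in the sources used here. Columns were matched to samples by title. FPKM hold no counts, so no count test was run, and depth was read only as a ratio, from the steps of low values. Symbols that had become dates (28) or were blank (210) were filled from GENCODE by Ensembl identifier, which also gave coordinates.

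Log2(FPKM + 1) values of the 10662 genes whose mean reached 1 FPKM were fitted by limma (version 3.58.1, R 4.3.3) with an intensity trend, as 8 group means (8 residual and 3.15 prior degrees of freedom). The fit was tested on simulated data in which each gene had the same spread in all groups. That test therefore does not cover the wider spread of iASPP siRNA+nutlin. Gene lists, 23 in number, came from textbook knowledge, and the mitochondrially encoded list is not analysed here. The comparison and the lists were chosen with earlier results of these data known. Genes were named by rule: PPP1R13L, MDM2 and CDKN1A, the 12 largest called rises and the 12 largest called falls with separate libraries, up to 4 members of each list past the threshold or the 2 with the smallest p, the 5 largest at each end of each interaction, and the 6 largest differences between replicates in each direction. Some genes that the rule names are not reported here. The spread is shared by all groups, although iASPP siRNA+nutlin varied more than the rest. The alternatives changed the pseudocount, filter, scaling, spread, replicate block and libraries.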

Additional observations from a re-analysis of the deposited data

Results flagged for a closer look

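The effect of iASPP siRNA differed between cells with and without nutlin for 109 genes by the test of the difference of differences (limma, adjusted p under 0.05). Of the genes named by rule, 20 are among them. Above 0 were HIST1H2AB at 4.27, EFCAB11 at 3.05, AURKB at 2.91, NUSAP1 at 2.68, RACGAP1 at 2.66, CDKN3 at 2.47, AURKA at 2.27, BIRC5 at 2.27, TACC3 at 2.09, UBE2T at 2.00, HELLS at 1.89, CENPK at 1.78, TYMS at 0.94 and B2M at 0.94, each a log2 difference of differences. Below 0 were PLK2 at -1.09, FDXR at -1.54, GALNT5 at -1.64, SFN at -1.69, RP11-467J12.4 at -1.77 and CDKN1A at -2.94 on the same scale. CCND1 at -0.92 and S100A6 at -0.84, chosen after their values were seen, also passed below 0 (limma, adjusted p = 0.0379 and 0.0119). Each of these values includes iASPP siRNA+nutlin replicate 2, the library that stands apart from its pair.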

How the results depend on the processing

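The main comparison called 82 genes. Counts within 1.5 times of that came from a pseudocount of 0.1 (114), no filter (59), a minimum of 5 FPKM (98) and median-of-ratios scaling (84). It called 34 with the replicate number as a block, 7 with a spread of its own for each group, 1657 without the 3 diverging libraries, 0 with each close pair averaged (310 at an unadjusted p under 0.05) and 0 with the 4 libraries alone (824 unadjusted), and 0 to 581 when 1 library was left out. For the nutlin by iASPP interaction, 109 became 65 without a filter, 197 at 5 FPKM, 206 with own spreads, 908 without the diverging libraries, 3 with close pairs averaged and 0 to 1230 with 1 library left out. The p53 by iASPP interaction, 0, became 1 at pseudocount 0.1, 274 without the diverging libraries, 1 with close pairs averaged and 0 to 99 with 1 library left out. The cause was not tested.

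The 82 genes kept their direction under each alternative in which they were measured. As their libraries did not overlap, only the median-of-ratios scaling could have changed it. Over the list counts and single named genes, each taken under each alternative, 808 values stayed within their limits and 107 list counts moved. Of the single-gene values 207 missed the threshold that the gene had passed, 30 passed it anew and 5, from 2 genes, reversed. CDKN1A reversed to 0.10 (0.1018) without the 3 diverging libraries and without iASPP siRNA+nutlin replicate 2 alone, and was -0.99 (-0.9913) without iASPP siRNA+nutlin replicate 1. The gene RP11-467J12.4 reversed to 0.032 under the same 2 settings and ranged from -0.17 (-0.1715) to 0.11 (0.1106) when 1 library was left out. Replicate numbers were not taken to pair the samples: deviations of same-numbered libraries correlated at 0.026 between CTR siRNA+nutlin and iASPP siRNA+nutlin, and over 0.1 in 3 of 28 pairs of groups (0.304 between p53 siRNA+nutlin and p53+iASPP siRNA+nutlin, 0.165 between iASPP siRNA+nutlin and p53+iASPP siRNA+nutlin, 0.112 between CTR siRNA and CTR siRNA+nutlin). The replicate block gave 93 genes in the nutlin by iASPP interaction and 0 in the other. Replicate 1 libraries were the shallower, which limits genes near 0. Median-of-ratios scaling moved the median of all genes in iASPP siRNA+nutlin replicate 2 from 0.151 to 0.003 against the control mean.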

Other observations

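The genes that differed most between the 2 iASPP siRNA+nutlin libraries were mostly listed at 0 in one of them. AL034430.2, a short non-coding gene, was at 0 FPKM in replicate 1 and 183 FPKM in replicate 2, and was listed at 0 in 13 of the 16 libraries, the other 3 being the diverging ones. Also higher in replicate 2 were SMIM11A (0 and 42.4 FPKM), RP11-286N22.8 (0 and 22.9 FPKM), HIST1H4D (0 and 18.6 FPKM), TMSB15A, a beta thymosin gene (0 and 17.5 FPKM) and S100A5 (0 and 14.3 FPKM). Lower in replicate 2 were RP11-599B13.6 (52.1 and 0 FPKM), TRBV7-4 (16.5 and 0 FPKM), RP11-162P23.2 (16.4 and 0 FPKM), LCE1F, a cornified envelope gene (15.1 and 0 FPKM), EPGN, an EGF receptor ligand (19.5 and 0.758 FPKM) and FAM86B2 (15.9 and 1.01 FPKM). They are given as values only.

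Other genes past the threshold, chosen after their values were seen, include the secretoglobin SCGB3A2, which rose from 405 and 449.8 FPKM to 1036 and 699 FPKM, the hyaluronan synthase HAS3, from 13.2 and 13.5 FPKM to 26.2 and 22.9 FPKM, the integrin subunit ITGB8, from 0.643 and 0.664 FPKM to 2.62 and 1.82 FPKM, and the protocadherin FAT1, from 14.1 and 13.7 FPKM to 35.7 and 26.5 FPKM. PRKDC, the catalytic subunit of DNA-dependent protein kinase, rose from 3.37 and 3.25 FPKM to 6.13 and 7.73 FPKM. IMPDH2, the rate-limiting enzyme of guanine nucleotide synthesis, fell from 393 and 391 FPKM to 243 and 289 FPKM, GPD2, the mitochondrial glycerol phosphate dehydrogenase, from 15.7 and 15.97 FPKM to 7.64 and 9.67 FPKM, and IFITM3, an antiviral membrane protein gene, from 699 and 723 FPKM to 393 and 533 FPKM.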
